A study of Arabidopsis thaliana with 31 samples.

Results

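The triple mutant gcn5-7 nrp1-1 nrp2-2 of Arabidopsis thaliana was compared with its wild type, the accession Columbia-0 (Col-0). Total RNA came from whole seedlings harvested 12 days after germination, grown on soil under long days, and 5 libraries were sequenced for each genotype. These 10 libraries, chosen by the genotype in their labels, are 10 of the 31 in the series. They were normalised by the authors in 1 table together with 5 libraries of each parent, the single mutant gcn5-7 and the double mutant nrp1-1 nrp2-2, so the triple mutant can also be set against the lines whose alleles it combines. The labels give no treatment, and they do not say whether replicates were separate batches of plants, so p-values measure the spread between these samples, which may be technical.

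GCN5 is the histone acetyltransferase of the SAGA coactivator complex, which acetylates histone tails at promoters, mainly on histone H3. NRP1 and NRP2 are related histone chaperones of the nucleosome assembly protein family, which carry histones to and from DNA. In Arabidopsis, loss of GCN5 gives dwarfed plants with altered light, stress and developmental gene expression, and NRP1 and NRP2 are known for redundant roles in root growth and genome stability.

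Values are TPM, transcript abundance scaled to transcript length and library size, rescaled between libraries by the trimmed mean of M values (TMM), and are called levels here. Fold changes are differences of the mean of log2(level + 1), so they understate the change of genes with low levels. A gene was called when limma, a linear model fitted across all genes, gave a Benjamini-Hochberg adjusted p below 0.05. Between 10300000 and 15000000 reads per Col-0 library and between 11200000 and 15800000 per triple-mutant library could be recovered from the spacing of low levels. The first principal component (49.9% of the variance) ran from −74.6 to 25.9 in Col-0 and from −63.9 to 64.3 in the triple mutant. On the second principal component (19.0% of the variance) replicates 1 and 2 lay above replicates 4 and 5 in every genotype. Deviations from the gene mean correlated with exon length at −0.436 to 0.398 over Col-0 libraries and −0.337 to 0.372 over triple-mutant libraries (Spearman). Fold changes correlated with exon length at 0.217 against Col-0, −0.273 against gcn5-7 and 0.38 against nrp1-1 nrp2-2 (Spearman). The summed level of the leaf mesophyll markers in triple-mutant replicate 2 was 90370, against 37440 to 50730 in the other 4 triple-mutant libraries. Since seedlings were sequenced whole, fewer cells of a type and less RNA per cell cannot be told apart. Leaf mesophyll markers dominated as the label implies, root markers summed to 55.9 to 99.6 in the triple mutant and 77.1 to 101.9 in Col-0, and the seed and embryo markers were near 0 in both. Same-numbered libraries deviated together, though a library of another number was at times closer. Values with the replicate number as a block are given where a call changes or a count moves by more than 1.5 times.

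The mutated genes were read first. NRP2 (AT1G18800, chromosome 1, 6481113 to 6483646) had a level of 0 in each of the 5 triple-mutant libraries. In Col-0 its level was 9.16, 12.7, 14.4, 13.4 and 9.48 in replicates 1 to 5, and the fold change was −3.66 (SE 0.17, limma adjusted p = 6.4e-11). NRP1 (AT1G74560, chromosome 1) stood at 13.0, 10.5, 9.70, 10.9 and 12.5 in the triple mutant and at 19.8, 30.0, 31.3, 30.3 and 27.8 in Col-0. No triple-mutant library reached the lowest Col-0 library, and the fold change was −1.22 (SE 0.18, limma adjusted p = 0.00068). Transcript of NRP1 remained, as it did in nrp1-1 nrp2-2 at 6.91 ± 2.01 (SD, n = 5). For NRP1 the triple mutant differed from nrp1-1 nrp2-2 by 0.67, which passed only with the replicate block (limma adjusted p = 0.034, and 0.11 without). Both genes were higher in gcn5-7 than in Col-0, NRP1 at 48.5 ± 6.92 and NRP2 at 23.9 ± 4.07 (SD, n = 5). GCN5 (AT3G54610, chromosome 3) was at 3.14 ± 0.645 in the triple mutant and 5.61 ± 1.45 in Col-0 (SD, n = 5), with overlapping libraries and a fold change of −0.66 (SE 0.21) that did not pass the test (limma adjusted p = 0.13, and 0.056 with the replicate block). The fold change did pass with a gene-length correction (0.0277, and 0.0135 with the block as well), after quantile normalisation (0.0384) and in replicates 3 to 5 alone (0.029), and did not on equal library sums (0.48). For GCN5 the triple mutant differed from nrp1-1 nrp2-2 by −0.80, which also passed only with the block (limma adjusted p = 0.032, and 0.10 without). Where a transcript is changed in structure rather than amount, its summed level is no check of the allele.

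**Figure D1:**
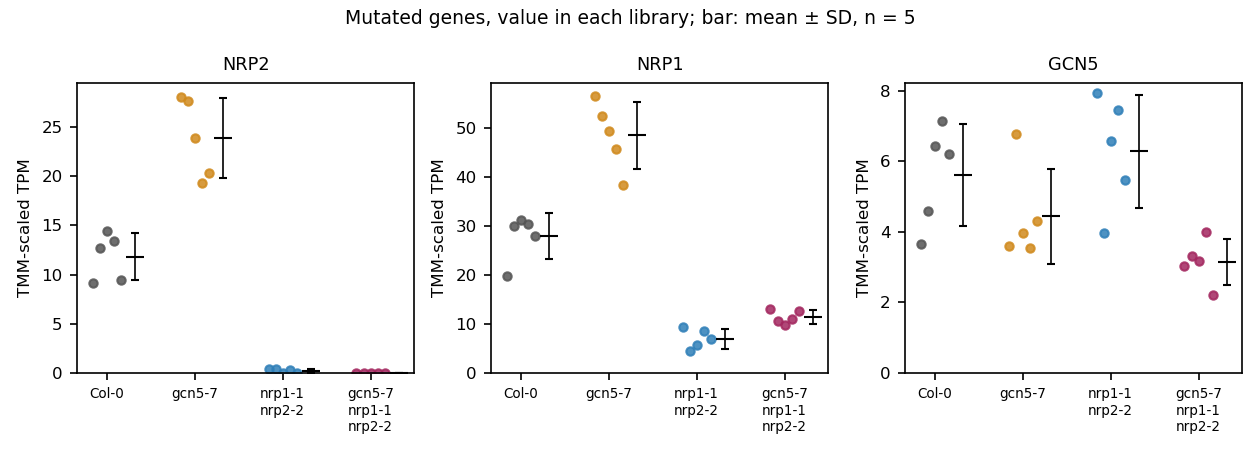
Level of NRP2, NRP1 and GCN5 in each of the 20 libraries, in TMM-scaled TPM, with the mean and SD of the 5 libraries of each genotype. NRP2 lies at 0 in all 5 triple-mutant libraries, NRP1 falls from 27.8 in Col-0 to 11.3, and the GCN5 points of Col-0 and the triple mutant overlap.

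The triple mutant had more of the transcripts of 8 of 24 genes for mitochondrial import, prohibitins and chaperonins and of 5 of 17 for ribosome biogenesis, and less of those for the expansin-like EXLB1, the wall enzymes XTH17 and XTH31, 3 glutathione transferases and 8 genes of the mitochondrial genome. Of 19507 genes tested, 474 were called against Col-0 (2.43%), 249 of them higher (1.28%) and 225 lower (1.15%). With the replicate block 1787 were called (9.16%), 4.48% higher and 4.69% lower, and all 474 were among them. In 219 of the genes called higher and 196 of those called lower, the 5 triple-mutant libraries did not overlap the 5 of Col-0, against 2.36% of all tested genes on the higher side and 2.13% on the lower (4.49% together). The change was at least 1 on the log2 scale, in either direction, for 159 higher and 164 lower genes, and at least 2 for 18 and 20.

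**Figure D2:**
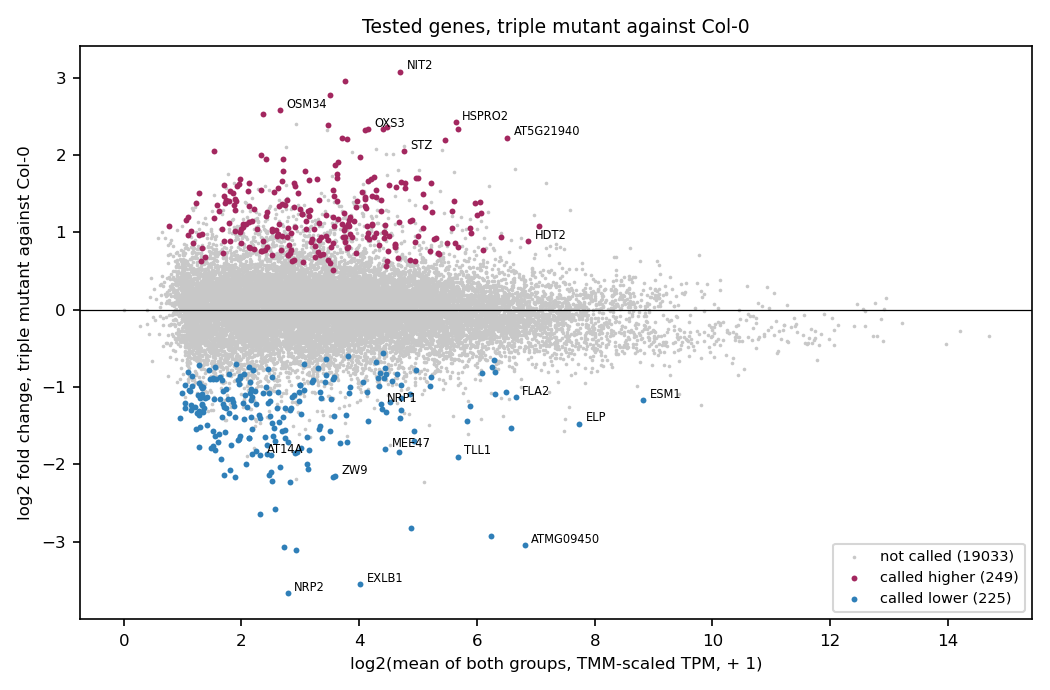
Log2 fold change of the triple mutant against Col-0 for each tested gene, plotted against log2 of the mean level of both groups plus 1. The 249 genes called higher and 225 called lower are coloured, some of the genes named in the text are labelled, and most of the abundant genes at the right lie close to 0.

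The mitochondrial inner membrane holds prohibitins, ring-forming scaffold proteins, and its matrix holds the chaperonin HSP60 and the chaperone HSP70, which fold imported proteins. Of 24 tested genes in the list for this machinery, 8 rose (33.3%) and none fell, against 1.28% of all genes called higher. The median fold change of the list was 0.67, against 0.03 over all tested genes. With the replicate block 13 were called higher (4.48% of all genes), 11 were in replicates 3 to 5 alone, and between 6 and 9 were when 1 library was left out. The list was itself drawn up after these data had been seen, so its count is a description.

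PHB1 (AT4G28510, chromosome 4, 14084624 to 14086882, minus strand) encodes a prohibitin. Its level was 15.01, 13.6, 12.2, 9.53 and 11.3 in Col-0 and 48.6, 41.6, 38.5, 33.3 and 39.2 in the triple mutant, replicates 1 to 5. Every triple-mutant library was above every Col-0 library, and the fold change was 1.64 (SE 0.16, limma adjusted p = 1e-05). In gcn5-7 its level was 22.9 ± 3.89 and in nrp1-1 nrp2-2 32.5 ± 4.04 (SD, n = 5). The triple mutant exceeded gcn5-7 by 0.80 (limma adjusted p = 0.011), whereas its difference from nrp1-1 nrp2-2, 0.30, did not pass (limma adjusted p = 0.44). PHB4 (AT3G27280, chromosome 3) went from 13.0 ± 4.51 in Col-0 to 40.1 ± 10.6 in the triple mutant (SD, n = 5), a fold change of 1.57 (SE 0.27, limma adjusted p = 0.0019), and its level in nrp1-1 nrp2-2 was 42.4 ± 18.8. PHB2 and PHB6 rose by 0.72 and 0.86. PHB3, the fifth tested prohibitin, had a fold change of 0.93 that did not pass (limma adjusted p = 0.096). It passed with the replicate block (0.00071), on equal library sums (0.00099) and after quantile normalisation (0.0104). It did not with a gene-length correction (limma adjusted p = 0.215), nor in any fit without 1 library (limma adjusted p from 0.0555 to 0.245).

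MTHSC70-1 (AT4G37910, chromosome 4, 17824777 to 17828192, minus strand) encodes a mitochondrial HSP70. Its level was 35.2, 30.6, 47.8, 40.5 and 35.1 in Col-0 and 95.6, 84.2, 91.1, 86.8 and 85.3 in the triple mutant. The triple-mutant libraries lay close together and all above Col-0, with a fold change of 1.22 (SE 0.19, limma adjusted p = 0.00094). The chaperonin genes HSP60-2 and HSP60 changed by 1.66 and 1.06, and TIM50, a receptor subunit of the inner-membrane import channel, by 0.94. HSP60 lost its call in 9 of the fits that left out 1 library, and TIM50 in 5. Subunits of the outer-membrane channel and of the small import chaperones did not pass, with values such as 0.38 for TOM40 and −0.02 for TOM20-4.

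Further mitochondrial genes, picked out after their values were seen, lay outside that list. GR-RBP3, a glycine-rich RNA-binding protein of mitochondria, rose from 9.02 ± 1.99 to 28.0 ± 2.23 (SD, n = 5; fold change 1.55, SE 0.17, limma adjusted p = 4.3e-05). MORF1, an organellar RNA editing factor, changed by 1.42, the RNA helicases PMH1 and PMH2 by 1.71 and 0.95, the protease LON1 by 1.91 and AR192, a GrpE-type partner of HSP70, by 1.46. GR-RBP3 and AR192 were also higher than in gcn5-7 (0.77 and 0.70, limma adjusted p = 0.02 and 0.033), and neither passed against nrp1-1 nrp2-2. Of 126 tested genes whose annotated product is named mitochondrial, 12 were called higher and none lower (23 and 2 with the replicate block), against 1.28% higher over all genes (4.48% with the block). Their median fold change was 0.06, against 0.03 over all tested genes. This group was formed after the calls were seen. The products of MTHSC70-1 and PMH1 are so named, so the count is not separate from the genes above. Genes of the retrograde response that signals mitochondrial failure to the nucleus gave 2 calls of 18, both higher, AOX1C (1.02) and DIC2 (1.52), against 1.28%. With the block 3 were higher and 1 lower, against 4.48% and 4.69% of all genes. AOX1A, the standard marker of that response, was at 24.2 ± 12.8 in the triple mutant and 30.3 ± 11.4 in Col-0 (SD, n = 5), a difference of −0.36 that did not pass (limma adjusted p = 0.80).

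Transcripts encoded in the mitochondrial genome took a smaller share of the triple-mutant libraries. They made up 0.0291%, 0.0267%, 0.0123%, 0.00878% and 0.00764% of the summed levels in triple-mutant replicates 1 to 5, and 0.0597%, 0.0638%, 0.0369%, 0.0314% and 0.0371% in Col-0. All 5 triple-mutant libraries were below all 5 of Col-0, also within replicates 1 and 2 and within replicates 3 to 5, at means of 0.0169% ± 0.0102 and 0.0458% ± 0.0148 (SD, n = 5; 2-sided exact permutation p = 0.00794, the smallest this design allows, and 0.0873 after adjustment over the 11 measures tested per library). The gene ATMG09450 counts in this share, and its mean level was 200.5 in Col-0 and 22.2 in the triple mutant. The share without ATMG09450 was not computed, so the groups are not shown to separate without this gene. In nrp1-1 nrp2-2 the full share ran from 0.00529% to 0.0256%, and in gcn5-7 from 0.027% to 0.0575%. Chloroplast-genome transcripts, 0.266% ± 0.174 and 0.292% ± 0.239 (SD, n = 5), did not pass (2-sided exact permutation p = 0.833). The labels do not say how RNA was selected for the libraries, on which such shares depend.

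Of 21 tested mitochondrial-genome genes, 8 were called lower and none higher, with a median fold change of −0.86 and a range of −3.11 to 0.56. The block gave the same counts. Over all genes 1.15% were called lower, and 4.69% with the block. None of 96 chloroplast-genome genes was called by limma (4 lower and 0 higher at an unadjusted p below 0.05, and 3 lower with the block). ATMG09450 was at 263, 339, 128, 130 and 142 in Col-0 and at 27.7, 28.1, 15.04, 17.0 and 23.0 in the triple mutant, a fold change of −3.04 (SE 0.38, limma adjusted p = 0.00014). Its level was 25.0 ± 16.2 in nrp1-1 nrp2-2 and 126 ± 45.2 in gcn5-7 (SD, n = 5), and the triple mutant differed from gcn5-7 by −2.42 (limma adjusted p = 0.0028) and from nrp1-1 nrp2-2 by 0.03 (limma adjusted p = 0.97). Against nrp1-1 nrp2-2 limma called none of the 21, nor did any reach an unadjusted p below 0.05, and 5 were called lower against gcn5-7 (8 lower and 1 higher with the block). AT2G07671, AT2G07759 and AT2G07774, nuclear genes on chromosome 2 within the copy of mitochondrial DNA there, were called lower too, AT2G07774 with its call lost in 3 of the fits without 1 library, and reads cannot be assigned between such copies with certainty.

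**Figure D3:**
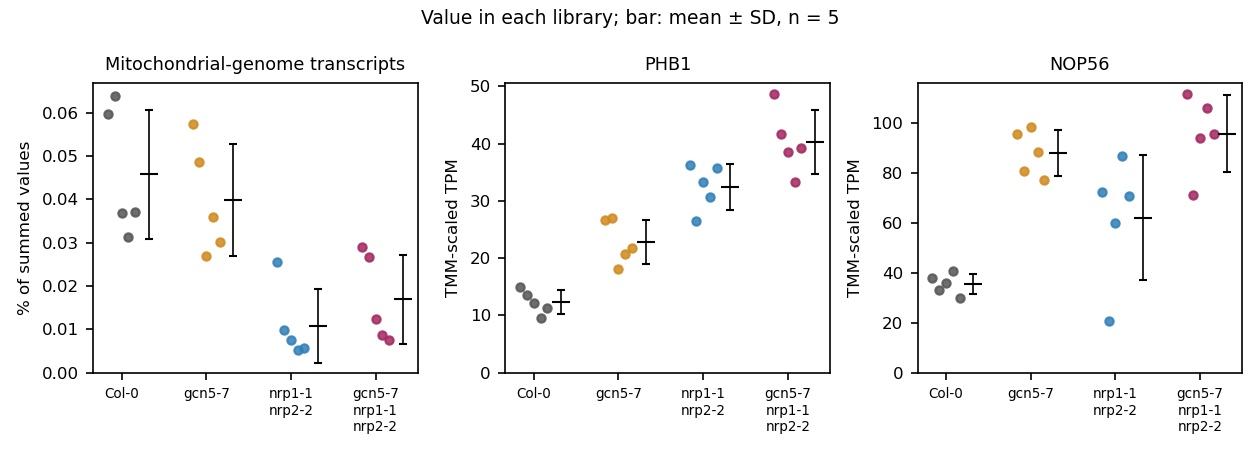
Left, transcripts of the mitochondrial genome as a percentage of all summed levels in each library. Centre and right, levels of the prohibitin gene PHB1 and of the nucleolar gene NOP56 in TMM-scaled TPM, with the mean and SD of 5 libraries: the triple mutant lies below Col-0 on the left and above it in both others, and 1 nrp1-1 nrp2-2 library is far below the rest for NOP56.

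Ribosomes are assembled in the nucleolus, where nucleolin, fibrillarin and their partners process and modify ribosomal RNA. Of 17 tested genes in the list for cytosolic ribosome biogenesis, 5 rose (29.4%) and none fell, against 1.28% of all genes called higher. With the replicate block 10 were called higher, against 4.48%, and all 17 had a positive fold change, at a median of 0.78. In replicates 3 to 5 alone 10 were called higher, and leaving out single libraries gave between 3 and 6. NOP56 (AT1G56110, chromosome 1, 20984273 to 20986952, minus strand), a core protein of the particles that guide ribosomal RNA modification, was at 38.2, 33.1, 36.0, 40.6 and 30.1 in Col-0 and at 112, 71.3, 94.2, 106 and 95.8 in the triple mutant. The groups did not overlap, and the fold change was 1.395 (SE 0.27, limma adjusted p = 0.0051). NUC-L1, the main nucleolin, stood at 85.9 ± 23.6 in Col-0 and 179 ± 29.2 in the triple mutant, and FIB2, a fibrillarin, at 34.2 ± 12.1 and 88.2 ± 19.2 (SD, n = 5). Their fold changes were 1.08 (SE 0.21, limma adjusted p = 0.0055) and 1.39 (SE 0.26, limma adjusted p = 0.0041). NAP57, the pseudouridine synthase of the same machinery, changed by 1.05 and lost its call in 2 of the fits without 1 library, and ANAC082, a transcription factor of the nucleolar stress response, by 0.63.

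In gcn5-7 the levels of NOP56, NUC-L1 and FIB2 were 88.2, 143 and 59.7, and in nrp1-1 nrp2-2 62.2, 122 and 64.5. None of the 3 passed against either parent, and with the replicate block FIB2 passed against gcn5-7 (0.53, limma adjusted p = 0.026) and NUC-L1 and NOP56 against nrp1-1 nrp2-2 (0.57 and 0.74, limma adjusted p = 0.038 and 0.043). Among genes grouped after their values were seen, 3 of 5 Brix-domain proteins of ribosome assembly, 10 of 159 WD40-repeat proteins and 5 of 37 DEA(D/H)-box RNA helicases were called higher and none lower, against 1.28% higher over all genes. With the replicate block 4, 27 and 11 were higher and none lower, against 4.48%. PWP2, a WD40 protein of the small-subunit processome, rose by 1.202 (SE 0.18, limma adjusted p = 0.00071), and SKB1, a protein arginine methyltransferase, by 1.27 (SE 0.16, limma adjusted p = 0.00016). AT4G12600, an L7Ae-family protein with a level of 110 ± 17.9 against 58.6 ± 20.1 (SD, n = 5), rose by 0.94 and lost its call in 3 of the fits without 1 library. Its triple-mutant replicate 3, at 80.4, lay below Col-0 replicate 2, at 90.05.

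The 250 bases before the annotated start of these genes were read from the RefSeq genome and annotation (TAIR10.1) and searched on both strands for the site II element, TGGGCC or TGGGCT, and the telo box, AAACCCTA, short motifs long described in promoters of plant ribosomal, mitochondrial and cell-growth genes. They are shown for members of both lists because these lists held the most calls, and capitals mark the motif matches on either strand. In NOP56, TGGGCC and its reverse complement GGCCCA were each counted.
PHB1, chr4:14086883-14087132, minus strand: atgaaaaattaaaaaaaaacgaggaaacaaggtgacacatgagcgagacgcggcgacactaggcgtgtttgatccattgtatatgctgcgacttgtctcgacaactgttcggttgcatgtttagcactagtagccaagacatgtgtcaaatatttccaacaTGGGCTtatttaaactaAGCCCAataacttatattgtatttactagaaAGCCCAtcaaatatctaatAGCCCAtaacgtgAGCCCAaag
PHB4, chr3:10076559-10076808, plus strand: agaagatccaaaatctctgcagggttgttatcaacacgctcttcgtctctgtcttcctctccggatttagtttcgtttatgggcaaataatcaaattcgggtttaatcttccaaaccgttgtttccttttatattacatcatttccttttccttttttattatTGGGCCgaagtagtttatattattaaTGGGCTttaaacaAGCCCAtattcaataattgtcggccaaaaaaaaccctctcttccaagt
MTHSC70-1, chr4:17828193-17828442, minus strand: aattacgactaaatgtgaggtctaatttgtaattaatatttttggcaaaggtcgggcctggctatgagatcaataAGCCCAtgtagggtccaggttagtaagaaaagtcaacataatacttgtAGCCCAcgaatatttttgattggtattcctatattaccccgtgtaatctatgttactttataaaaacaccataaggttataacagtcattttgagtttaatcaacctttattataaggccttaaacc
NOP56, chr1:20986953-20987202, minus strand: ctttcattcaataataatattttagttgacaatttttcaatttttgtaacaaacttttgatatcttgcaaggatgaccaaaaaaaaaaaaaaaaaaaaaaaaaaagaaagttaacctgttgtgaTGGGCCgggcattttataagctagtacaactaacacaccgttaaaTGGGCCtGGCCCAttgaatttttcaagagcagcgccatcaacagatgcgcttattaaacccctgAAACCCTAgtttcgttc
NUC-L1, chr1:18097831-18098080, plus strand: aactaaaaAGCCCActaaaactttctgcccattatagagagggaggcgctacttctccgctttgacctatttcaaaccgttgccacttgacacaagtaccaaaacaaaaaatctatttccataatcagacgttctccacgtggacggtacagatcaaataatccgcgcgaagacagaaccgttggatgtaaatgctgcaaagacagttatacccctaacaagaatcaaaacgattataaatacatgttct
FIB2, chr4:13073840-13074089, plus strand: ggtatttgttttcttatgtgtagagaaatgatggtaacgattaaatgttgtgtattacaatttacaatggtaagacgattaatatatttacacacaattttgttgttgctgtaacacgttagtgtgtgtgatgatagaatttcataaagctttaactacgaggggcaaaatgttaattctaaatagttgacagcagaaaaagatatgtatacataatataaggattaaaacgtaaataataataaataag

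PHB1 held 5 site II matches, PHB4 3, MTHSC70-1 2, NOP56 3 with 1 telo box, NUC-L1 1 and FIB2 0. A site II match was present in 15 of the 24 mitochondrial import promoters (62.5%) and in 10 of the 17 ribosome biogenesis promoters (58.8%), against 22.3% of the 19389 tested promoters. Lists with no gene called held it too. It was in 11 of 27 promoters of core and linker histones (40.7%) and 7 of 27 of photosystem subunits (25.9%). For light-harvesting and Rubisco genes it was in 2 of 23 (8.7%). Among all genes called higher in the triple mutant 84 of 249 promoters held one (33.7%), and among those called lower 20 of the 217 with a promoter in the annotation did (9.22%). The telo box was in 7.63% of promoters of genes called higher, 1.38% of those called lower and 3.81% of all. These matches are letters in a window and are not measured binding sites.

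Genes of the chromatin machinery are listed against a share of 2.43% called over all genes, in either direction. The mutated genes NRP1, NRP2 and GCN5, given above, are left out of these lists. None of 12 histone chaperone genes, 27 core and linker histone genes, 15 genes of SAGA and other histone acetyltransferases and 18 Polycomb-related genes was called, with medians of 0.32, −0.04, 0.29 and 0.27. At an unadjusted p below 0.05, limma gave 2 of the chaperones, both higher, and 0 in the other 3 lists, against 5.86% higher and 6.31% lower over all genes. With the replicate block 1 of these 4 lists gained a call, HIRA among the chaperones (0.44, limma adjusted p = 0.045). Among 14 histone deacetylases, 2 plant-specific nucleolar deacetylases rose, against 1.28% higher over all genes (5 of the 14 with the block, against 4.48%). HDT2 changed from 82.2 ± 22.3 to 150 ± 23.6 (SD, n = 5; 0.88, SE 0.18, limma adjusted p = 0.0077) and HDT1 by 1.26 (SE 0.26, limma adjusted p = 0.01). YAF9B, a subunit shared by chromatin-remodelling and acetyltransferase complexes, rose from 1.04 ± 0.307 to 4.305 ± 1.64 (SD, n = 5; 1.35, SE 0.26, limma adjusted p = 0.005).

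Among stress and defence genes, NIT2 (AT3G44300, chromosome 3), a nitrilase, had the highest fold change of all called genes with a symbol. Its level was 2.74, 2.93, 8.73, 0.176 and 9.08 in Col-0 and 54.0, 18.8, 96.4, 14.9 and 42.0 in the triple mutant, a fold change of 3.08 (SE 0.75, limma adjusted p = 0.03). The call was lost in 6 of the fits that left out 1 library. NIT2 lies beside its close relatives NIT1 and NIT3, so its reads are uncertain: NIT3 was called lower (−1.08) and NIT1 was not called (0.35). KTI1, a Kunitz trypsin inhibitor, and OSM34, an osmotin of the thaumatin family, changed by 2.96 and 2.58. For both, gcn5-7 was far higher than the triple mutant, at 94.9 ± 85.4 against 23.4 ± 17.3 for KTI1 and 25.6 ± 20.1 against 9.98 ± 7.61 for OSM34 (SD, n = 5), and the difference between these lines did not pass for either (limma adjusted p = 0.19 and 0.21), and did for both with the replicate block (0.027 and 0.03). KTI1 lost its call against Col-0 in 7 of the fits without 1 library.

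Other genes of this kind had higher mean levels in both parents, or mainly in nrp1-1 nrp2-2. OXS3, named for oxidative stress tolerance, was at 5.60, 5.67, 3.19, 2.74 and 4.53 in Col-0 and 9.29, 22.3, 43.7, 24.5 and 45.4 in the triple mutant. All triple-mutant libraries were above Col-0, with replicate 1 closest, and the fold change was 2.34 (SE 0.45, limma adjusted p = 0.005). Its level in gcn5-7 was 4.56 ± 2.19 and in nrp1-1 nrp2-2 21.4 ± 16.9 (SD, n = 5), and the triple mutant exceeded gcn5-7 by 2.32 (limma adjusted p = 0.0087). AT5G21940, annotated as a signal transduction histidine kinase-like protein, followed the same order with 32.4 ± 15.3 in Col-0, 36.1 ± 14.96 in gcn5-7, 149 ± 46.3 in the triple mutant and 146 ± 39.8 in nrp1-1 nrp2-2 (SD, n = 5; 2.23 against Col-0, SE 0.33, limma adjusted p = 0.0006). STZ, a zinc-finger repressor of salt and cold stress, rose by 2.05 (SE 0.39, limma adjusted p = 0.0047) and was raised in both parents. ATCTH, a CCCH zinc-finger protein, rose by 2.21, HSPRO2, an ortholog of a sugar beet nematode resistance protein, by 2.42, and BT5, a BTB and TAZ domain protein, by 2.37. HSPRO2 and BT5 each lost their call in 6 of the fits without 1 library.

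MRD1 (AT1G53480, chromosome 1) had its highest level in the triple mutant. It was listed at 14.9, 10.1, 2.80, 1.82 and 10.3 there and at 0.259, 0.284, 0.097, 0.216 and 0.547 in Col-0, with 0.752 ± 0.460 in gcn5-7 and 1.85 ± 2.61 in nrp1-1 nrp2-2 (SD, n = 5). The fold change was 2.53 against Col-0 (SE 0.46, limma adjusted p = 0.0033) and 2.11 against gcn5-7 (limma adjusted p = 0.017), while the 1.73 against nrp1-1 nrp2-2 did not pass (limma adjusted p = 0.10) and did with the replicate block (0.025) or on equal sums (0.0307). This last difference did not pass after quantile normalisation (limma adjusted p = 0.196) or when only the compared groups were fitted (limma adjusted p = 0.493). Among ethylene response factors, ERF2 rose from 1.19 ± 0.698 to 7.47 ± 2.54 and ERF5 from 0.497 ± 0.372 to 4.05 ± 2.50 (SD, n = 5; 1.95 and 1.61, limma adjusted p = 0.013 and 0.014), and ERF104 by 1.88 (limma adjusted p = 0.041, lost in 8 of the fits without 1 library and on equal sums, where it was 0.082). For ERF5 the groups overlapped, with triple-mutant replicate 1, at 0.884, below Col-0 replicate 1, at 1.119. In the same list of 11 tested genes the defensin PDF1.3 fell. Its level was 34.2, 34.8, 65.2, 25.6 and 78.7 in Col-0 and 1.00, 9.07, 1.59, 5.74 and 28.1 in the triple mutant, where replicate 5 reached into the Col-0 range (−2.82, SE 0.64, limma adjusted p = 0.018, lost in 3 of the fits without 1 library). The triple mutant was also below nrp1-1 nrp2-2, at 103 ± 77.4 (SD, n = 5), by −3.68 (limma adjusted p = 0.005). PDF1.3 belongs to a family of similar defensins, of which PDF1.2, PDF1.2b and PDF1.2c were not called.

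**Figure D4:**
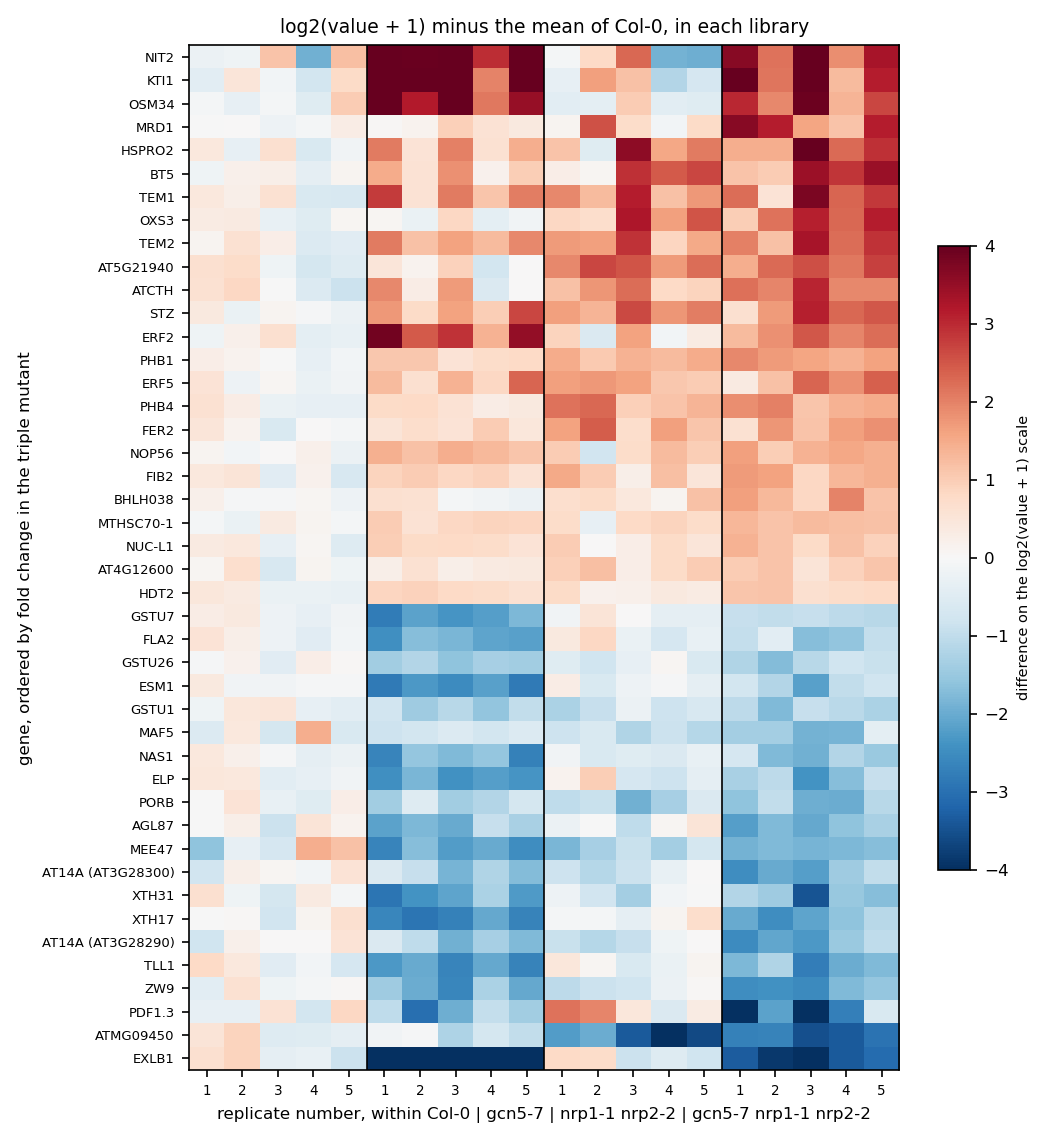
Difference of log2(level + 1) from the mean of Col-0 for named genes (rows, ordered by fold change in the triple mutant) in each of the 20 libraries (columns, by genotype and replicate number), with the colour scale limited to −4 and 4. NIT2, KTI1 and OSM34 are reddest in gcn5-7, and EXLB1 is darkest blue there. AT5G21940 is as red in nrp1-1 nrp2-2 as in the triple mutant. OXS3 is red in both lines, but pale in replicates 1 and 2 of nrp1-1 nrp2-2.

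Salicylic acid, pathogenesis-related and photosynthesis genes were set beside their values in gcn5-7, which had 5118 called genes (26.2%) against the same Col-0 libraries. For 23 salicylic acid genes the median fold change against Col-0 was 0.71 in the triple mutant, 1.76 in gcn5-7 and 0.04 in nrp1-1 nrp2-2. For 15 pathogenesis-related genes it was 0.80, 2.56 and 0.03. Without triple-mutant replicate 3 the triple-mutant medians were 0.34 and 0.47, without Col-0 replicate 3 they were 0.99 and 1.27, and without Col-0 replicate 4 they were 0.66 and 0.42. None was called by limma against Col-0 in the triple mutant (3 of the 23 higher, and 1 of the 15 higher and 1 lower, at an unadjusted p below 0.05), and with the replicate block 3 of the 23 and 1 of the 15 were called higher and 1 of the 15 lower. Over all genes 5.86% were higher and 6.31% lower at an unadjusted p below 0.05, and 4.48% and 4.69% were called with the block. PR2, a glucanase, was at 83.2, 64.6, 191, 10.04 and 40.7 in the triple mutant, at 32.2, 37.7, 99.6, 2.98 and 14.99 in Col-0 and at 1216, 715, 368, 71.4 and 173 in gcn5-7. The libraries of 1 genotype spanned more than the difference between the triple mutant and Col-0 (1.18, limma adjusted p = 0.71), while replicate for replicate each triple-mutant library was above Col-0 and below gcn5-7.

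For photosynthesis genes the triple-mutant medians moved with the scaling. The median for 23 light-harvesting and Rubisco genes was −0.21 in the triple mutant, −1.14 in gcn5-7 and 0.23 in nrp1-1 nrp2-2, and for 27 photosystem subunits −0.36, −1.13 and 0.21. In the triple mutant the first became −0.08 on equal sums and 0.01 after quantile normalisation, and the second −0.24 and −0.11. Leaving out single libraries gave −0.42 (without triple-mutant replicate 2) to −0.06 (without Col-0 replicate 1) for the first, and −0.54 to −0.23, without the same libraries, for the second. None was called by limma in the triple mutant (1 light-harvesting gene lower with the block, and 1 gene of each list lower at an unadjusted p below 0.05, against 4.69% and 6.31% of all genes). PSBR, a subunit of photosystem II, had a level of 6227 ± 2150 in the triple mutant, 8067 ± 3214 in Col-0 and 3095 ± 829 in gcn5-7 (SD, n = 5). PORB, which makes chlorophyllide in the light, was an exception among 20 chlorophyll synthesis genes: it fell from 140 ± 40.6 to 48.3 ± 15.99 (SD, n = 5; −1.53, SE 0.27, limma adjusted p = 0.003), and was at 67.4 ± 19.5 in gcn5-7 and 63.8 ± 21.1 in nrp1-1 nrp2-2.

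The difference between the triple mutant and gcn5-7 was tested directly. Of the 19507 genes 627 were called (3.21%), 405 higher in the triple mutant (2.08%) and 222 lower (1.14%), and 4953 with the replicate block (25.4%), 13.6% higher and 11.8% lower. On equal library sums instead of TMM the split was 175 higher and 306 lower, so the balance of directions rests on the scaling. Among photosystem subunits limma called 0 of 27 (23 higher at an unadjusted p below 0.05, against 12.5% of all genes), and 25 of 27 higher with the block, at a median of 0.82 (0.53 on equal sums and 0.27 after quantile normalisation). Light-harvesting and Rubisco genes gave 3 of 23 higher, and 19 with the block. In the lists of intracellular NLR immune receptors and cysteine-rich receptor-like kinases limma called none (9 of 26 and 17 of 33 lower at an unadjusted p below 0.05, against 8.86% of all genes), and with the block 21 of 26 and 21 of 33 were lower in the triple mutant, at medians of −0.80 and −0.97. Of the pathogenesis-related genes 2 of 15 were lower, and 10 with the block. Single libraries moved these counts. Without triple-mutant replicate 3, 7 light-harvesting genes and 3 photosystem genes were higher, and 13 receptor-like kinases, 3 NLR genes and 6 pathogenesis-related genes were lower. Without gcn5-7 replicate 4 the counts were 4, 1, 0, 0 and 3. Without any 1 of the other 8 libraries the first 4 counts were 0, and the pathogenesis-related count was 0 or 1. The leaf mesophyll markers themselves summed to 37440 to 90370 in the triple mutant and 14860 to 38640 in gcn5-7, and their part in these differences was not tested.

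**Figure D5:**
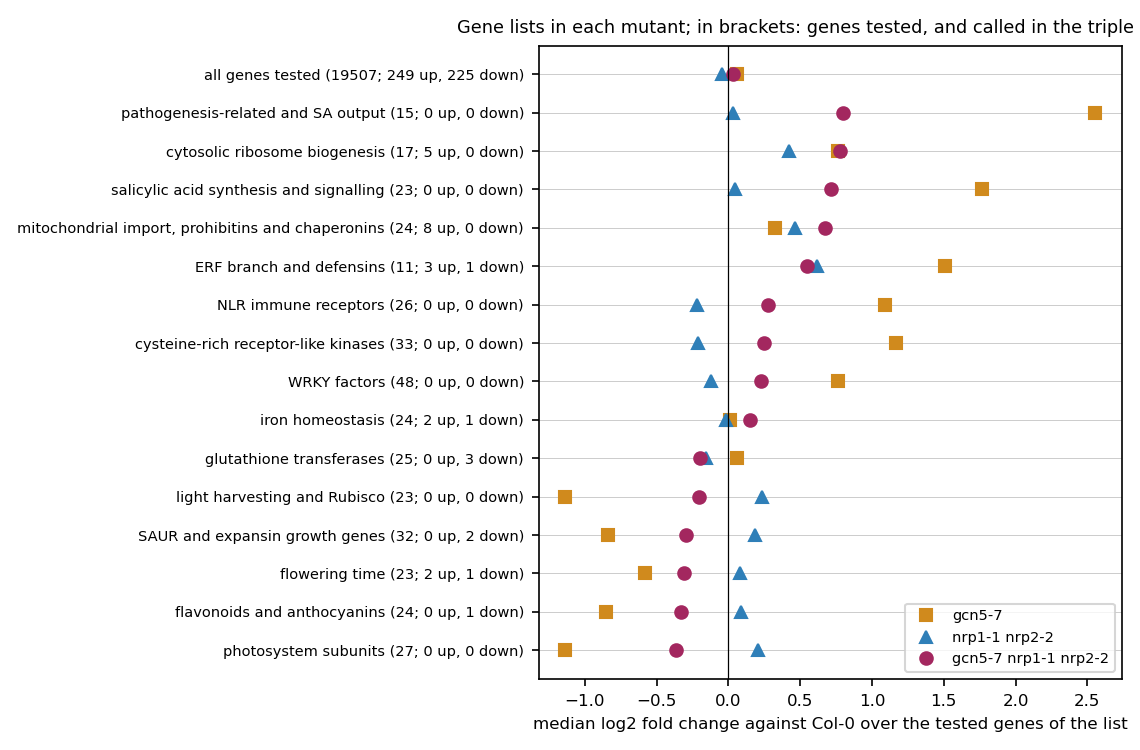
Median log2 fold change against Col-0 over the tested genes of each list, for gcn5-7, nrp1-1 nrp2-2 and the triple mutant, which share the same 5 Col-0 libraries. Brackets give the number of genes tested and called in the triple mutant; the triple-mutant points for pathogenesis-related and photosystem genes lie between those of the parents, and that for mitochondrial import lies to the right of both.

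EXLB1 (AT4G17030, chromosome 4), an expansin-like protein, had the lowest fold change after NRP2 among called genes with a symbol. Its level was 41.0, 49.3, 19.9, 20.9 and 13.9 in Col-0 and 1.67, 0.881, 0.587, 1.63 and 2.22 in the triple mutant, a fold change of −3.54 (SE 0.36, limma adjusted p = 1.7e-05). It was listed at 0 in 4 of 5 gcn5-7 libraries and at 27.4 ± 16.4 (SD, n = 5) in nrp1-1 nrp2-2. The triple mutant was above gcn5-7 by 1.19, which did not pass (limma adjusted p = 0.069) and did with the replicate block (0.0088), on equal sums (0.0266) and after quantile normalisation (0.0351). With a pseudocount of 5 the difference was 0.344 and did not pass (limma adjusted p = 0.493). The xyloglucan-modifying enzymes XTH17 and XTH31 fell by 1.87 and 1.84 on the log2 scale (limma adjusted p = 0.00062 and 0.011). In the list of 32 growth-related SAUR, expansin and XTH genes 2 were called lower, EXLB1 and XTH17, against 1.15% of all genes. With the block 6 were lower, against 4.69%. ELP, an extensin-like wall protein, fell from 310 ± 90.2 to 114 ± 41.2 (SD, n = 5; −1.47, limma adjusted p = 0.013), and the arabinogalactan protein FLA2 by 1.12 on the log2 scale, a call lost in 8 of the fits without 1 library. CSLB03, a cellulose synthase-like gene picked after its values were seen, was at 8.90, 8.37, 10.1, 9.71 and 10.4 in Col-0 and at 2.57, 1.45, 1.296, 3.15 and 3.02 in the triple mutant (−1.71, SE 0.23, limma adjusted p = 0.0002).

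Of the gibberellin pathway, also picked after its values were seen, GID1B, a receptor, rose from 4.34 ± 0.706 to 10.8 ± 1.64 (SD, n = 5; 1.14, SE 0.22, limma adjusted p = 0.0049), and GID1A and GID1C were not called. The DELLA growth repressors GAI and RGL2 fell from 37.7 ± 8.85 to 18.2 ± 9.11 and from 18.0 ± 4.91 to 8.53 ± 4.67 (SD, n = 5; −1.09 and −1.07, limma adjusted p = 0.026 and 0.028). Triple-mutant replicate 2 overlapped Col-0 for both, and the calls were lost in 8 and 7 of the fits without 1 library. RGA1 and RGL1, at −0.36 and −0.70, were not called, and RGL1 was with the replicate block (limma adjusted p = 0.029). IAA7, an auxin response repressor, fell by 0.80 on the log2 scale, and the call was lost in 8 of the fits without 1 library. It was the only one of 20 Aux/IAA and GH3 genes called, against 1.15% lower over all genes. With the block 5 were lower, against 4.69%.

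ESM1, which steers glucosinolate breakdown towards isothiocyanates, was the most abundant gene called lower, at 796, 558, 559, 592 and 588 in Col-0 and 368, 270, 136, 308 and 354 in the triple mutant (−1.17, SE 0.24, limma adjusted p = 0.0096). In gcn5-7 it was at 107 ± 22.6 (SD, n = 5), and the triple mutant was above that by 1.36 (limma adjusted p = 0.0062). TLL1, a triacylglycerol lipase-like gene, fell from 79.8 ± 34.4 to 20.4 ± 7.73 (SD, n = 5; −1.90, limma adjusted p = 0.00077). Among 25 glutathione transferases, which conjugate toxic compounds, 3 of the tau class fell, GSTU26 (−1.15), GSTU1 (−1.22) and GSTU7 (−0.996), and none rose, against 1.15% lower over all genes. GSTU7 was at 22.3, 23.5, 15.4, 13.9 and 16.1 in Col-0 and 8.99, 8.56, 8.88, 8.11 and 7.75 in the triple mutant, above gcn5-7 at 3.04 ± 1.00 (SD, n = 5) by 1.26 and below nrp1-1 nrp2-2 by 0.93 on the log2 scale (limma adjusted p = 0.0031 and 0.037). ARGAH2, an arginase, and SCPL11, a serine carboxypeptidase-like enzyme, both picked after their values were seen, likewise lay between the parents, lower than Col-0 by 1.44 and 1.66 and above gcn5-7 by 1.80 and 1.09 on the log2 scale (limma adjusted p = 0.00032 and 0.0083 against gcn5-7). ZW9, a TRAF-like protein, fell by 2.15 on the log2 scale (limma adjusted p = 0.0002), and 6 of 30 tested TRAF-like genes, grouped after their values were seen, were called lower, against 1.15% of all genes. With the block 7 were lower and 1 higher, against 4.69% and 4.48%. The AT14A copies AT3G28290 and AT3G28300 were both called lower (−1.88 and −1.82), but are near-identical neighbours whose reads cannot be split with certainty. MEE47 and AGL87 fell by 1.81 and 1.79 on the log2 scale, and the first lost its call in 3 of the fits without 1 library.

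Of 23 flowering-time genes 2 rose and 1 fell (3 and 6 with the replicate block), against 1.28% and 1.15% of all genes (4.48% and 4.69% with the block). TEM1 and TEM2, repressors of FT, rose to 35.3 ± 25.9 from 5.06 ± 2.30 and to 28.0 ± 15.5 from 4.36 ± 1.80 (SD, n = 5; 2.34 and 2.32, limma adjusted p = 0.014 and 0.0013). For TEM2 the groups did not overlap, whereas triple-mutant replicate 2 of TEM1, at 7.28, lay below Col-0 replicate 3, at 7.68. MAF5, a relative of the repressor FLC, fell by 1.37 on the log2 scale with overlapping libraries (limma adjusted p = 0.036, lost in 6 of the fits without 1 library). FLC was at 4.54 ± 2.37 in Col-0 and 1.66 ± 1.58 in the triple mutant (SD, n = 5), called with the block and not without it (−1.16, limma adjusted p = 0.15 and 0.036), and FT was not called (−0.33). In the iron list 2 of 24 rose, BHLH038, a regulator of iron uptake, and the ferritin gene FER2 (1.38 and 1.399, limma adjusted p = 0.0024 and 0.01), and NAS1, which makes the iron chelator nicotianamine, fell from 36.2 ± 8.41 to 13.5 ± 5.32 (SD, n = 5; −1.404, limma adjusted p = 0.0044). With the block 5 of the 24 rose and 2 fell, shares to be read against the same percentages over all genes. BHLH038, at 2.40 ± 1.09 against 0.260 ± 0.139 (SD, n = 5), was also above gcn5-7 by 1.22 (limma adjusted p = 0.011).

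To place the triple mutant between its parents, the means were compared. Where the triple mutant was called higher than Col-0, its mean was above the means of both parents for 206 of 249 genes and between them for 43. Where it was called lower, its mean was between those of the parents for 167 of 225 genes and below both for 58. Since these genes were chosen for their triple-mutant values, the counts above both parents and below both parents are raised by the choice. Over all 19507 tested genes the triple-mutant mean was above both parents for 3691 and below both for 2037. Of the genes called higher 140 were also called higher in gcn5-7 and 48 in nrp1-1 nrp2-2, and of those called lower 203 and 13, all against the same Col-0 libraries. Over all tested genes gcn5-7 had 11.6% called higher and 14.7% lower, and nrp1-1 nrp2-2 0.297% and 0.0923%. Against nrp1-1 nrp2-2, 139 genes were called in the triple mutant (0.713%), 20 higher and 119 lower, and 1237 with the replicate block (6.34%). Genes lower than in nrp1-1 nrp2-2 included EXLB1 (−3.42, limma adjusted p = 4e-05), TLL1 (−1.85, limma adjusted p = 0.0019) and XTH17 (−1.93, limma adjusted p = 0.00095).

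No gene was called by limma in the same direction against Col-0, gcn5-7 and nrp1-1 nrp2-2 at once (31 higher and 15 lower at unadjusted p-values below 0.05). With the replicate block 15 were, 8 higher and 7 lower in the triple mutant, in comparisons that share the triple-mutant libraries. All 5 triple-mutant libraries lay above all 15 others for MTHSC70-1, RUS1 and AT4G21520 (0.0154% of tested genes), and below all 15 for LTP2, CAD5 and AT1G76530 (0.0154%). The genes called higher with the block against Col-0 and both parents were MRD1, PMH1, RUS1, AT5G61590, AT1G15870, AT1G63250, AT1G55040 and AT2G44510. PMH1, the mitochondrial RNA helicase, was at 29.7, 22.02, 20.6, 38.5 and 30.8 in the triple mutant, against 6.94, 6.11, 7.39, 12.4 and 7.03 in Col-0, 19.2 ± 4.06 in gcn5-7 and 19.1 ± 8.43 in nrp1-1 nrp2-2 (SD, n = 5). It exceeded gcn5-7 by 0.52 and nrp1-1 nrp2-2 by 0.61 (limma adjusted p = 0.017 and 0.022 with the block, 0.25 and 0.37 without). AT5G61590, an ERF-type transcription factor, was at 18.8 ± 12.1 in the triple mutant, 1.80 ± 1.67 in Col-0, 7.92 ± 4.23 in gcn5-7 and 8.66 ± 9.55 in nrp1-1 nrp2-2 (SD, n = 5). Genes called lower with the block against Col-0 and both parents included MYBR1, a MYB transcription factor, at 49.2 ± 37.0 against 77.6 ± 36.5 in Col-0 (SD, n = 5). The difference of MYBR1 from Col-0 did not pass without the block (limma adjusted p = 0.64).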

How the data were processed

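The authors deposited gene-level signal values, TMM-scaled TPM, in 1 table of 20 libraries (4 genotypes, 5 each). Per the submitters' processing notes, fastp 0.23.4, HISAT2 2.2.1 and the TAIR10 build were used; the read counter, strand setting and annotation were not given in the sources used here, so overlapping and antisense genes cannot be told apart. Levels are not counts, so log2(level + 1) of the 19507 genes with a mean of at least 1 was fitted in limma 3.58.1 (R 4.3.3, trend, robust, 4 groups, no covariate) with Benjamini-Hochberg adjustment. The fit was tested on simulated data with independent noise in each library. Those data held no correlation between same-numbered libraries, so they cannot check the error rate where libraries deviate together. Single values were tested by 2-sided exact permutation over libraries. Read depth was estimated from levels that are whole multiples of 1 read (tolerance 0.05 reads).

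Every library correlated by more than 0.1 with its same-numbered partner after group means were removed (0.276 to 0.757 for the triple mutant against Col-0, 0.116 to 0.538 against gcn5-7, 0.375 to 0.798 against nrp1-1 nrp2-2), so numbers were treated as pairs in the blocked fit. For triple-mutant replicate 5 a Col-0 library of another number correlated more (0.464 against 0.408). So did gcn5-7 libraries of another number for triple-mutant replicates 1 (0.178 against 0.116), 3 (0.553 against 0.343) and 5 (0.468 against 0.4). Against nrp1-1 nrp2-2 the same number was closest throughout. No replicate pair was a duplicate: counts differed by 17.3 to 121 times sampling noise. Named genes are the mutated genes, the 10 highest and 10 lowest fold changes among called genes with a symbol, a level of at least 5 and no overlap, the 3 lowest p-values of each list with at least 3 calls, the 5 most abundant genes called in each direction, genes called the same way against Col-0 and both parents, genes listed below 0.1 in one group and at 1 or more in the other, and runs of at least 4 neighbouring called genes. Alternatives changed the pseudocount, the minimum level, the scaling, a gene-length correction, the groups fitted, the block and the libraries included. The comparison, gene lists and this rule were chosen with earlier results of these data known. Gene positions and promoters came from RefSeq (TAIR10.1), matched by locus code for 32548 of 32833 genes.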

Additional observations from a re-analysis of the deposited data

Results flagged for a closer look

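In 7 of 116 groups of 5 libraries, 1 library stood apart from the other 4 by more than 0.71 of the group's range, a limit that chance passes in about 5% of groups. In triple-mutant replicate 2 the leaf mesophyll markers summed to 90370 (37440 to 50730 in the others) and the seed and embryo markers to 0.921 (0.098 to 0.274). Without that library 514 genes were called against Col-0, in place of 474. The flower markers summed to 11.8 in Col-0 replicate 4, against 3.54 to 4.67 in the other Col-0 libraries. OSM34 was at 2.06 in Col-0 replicate 5, against 0.08 to 0.433, and every triple-mutant library was still above it. ATCTH was at 37.0 in triple-mutant replicate 3, against 16.6 to 20.6, and MAF5 at 3.65 in triple-mutant replicate 5, against 0.624 to 1.38. ESM1 was at 796 in Col-0 replicate 1, against 558 to 592. The part of these libraries in the results beyond the fits without them was not tested.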

How the results depend on the processing

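Against Col-0, 474 called genes became 252 with a minimum mean of 5 (fewer genes tested), 892 with a term for replicates 1 and 2 against 3 to 5, 1787 with the replicate block, 2349 with the block and a gene-length correction, 7 in replicates 1 and 2 alone (fewer samples), and 326 to 514 without single libraries. Against gcn5-7, 627 became 378 with a minimum mean of 5, 1246 after quantile normalisation, 1012 with the length correction, 4953 with the block, 5078 with block and length, 2139 with the replicate term, 139 in replicates 3 to 5, 215 in replicates 1 and 2, and 182 to 1669 without single libraries: 210, 354, 245 and 316 without gcn5-7 replicates 1, 2, 3 and 5, and 262, 281, 1669, 332 and 182 without triple-mutant replicates 1 to 5. Equal sums gave 175 higher and 306 lower, against 405 and 222. Against nrp1-1 nrp2-2, 139 became 46 with a minimum mean of 5, 218 with the length correction, 30 when only these groups were fitted, 1237 with the block, 1430 with block and length, 336 with the replicate term, 24 in replicates 3 to 5, 27 in replicates 1 and 2, and 91 to 178 without single libraries (91 without triple-mutant replicate 1). Where no cause is given, it was not tested. Equal sums moved the median of all genes against Col-0 by 0.11 on the log2 scale. Of 111 called genes named or listed, 111 kept their call with the block, 106 with the length correction, 93 on equal sums and 84 in every fit without 1 library; none changed sign. The block changed no call of these genes. The mitochondrial-genome share differed by −0.0289 percentage points, and by −0.0325 to −0.0244 without single libraries. With these depths, genes below a mean level of 1 were not tested, and the recovered depth covers counting error only.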

Other observations

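Several regulators not described in the report were called higher in the triple mutant; they were chosen after their values were seen. The tandem CCCH zinc-finger genes SZF1 and CZF1, which dampen salt-stress responses, were at 49.2 and 57.4 against 12.8 and 15.04 in Col-0 (fold changes 1.699 and 1.64 on the log2 scale, limma adjusted p = 0.0095 and 0.021), and CZF1 lost its call in 3 of the fits without 1 library. MKK9, a kinase of the ethylene and stress MAP kinase cascade, changed by 1.69 (limma adjusted p = 0.0065), LBD37, a nitrogen-responsive repressor, by 1.58 (limma adjusted p = 0.0021), and DEAR2, an AP2-type factor, by 1.54 (limma adjusted p = 0.00094). NAP, a leaf senescence regulator, was at 18.4 against 1.74 (2.39, limma adjusted p = 0.046), and lost its call in 9 of the fits without 1 library. HSP18.2, a small heat shock protein, fell from 2.51 to 0.164 (−1.54, limma adjusted p = 0.00014), and ETC3, a repressor of leaf hairs, from 8.16 to 1.73 (−1.69, limma adjusted p = 0.017, lost in 2 of the fits without 1 library).

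AT2G01023 (chromosome 2, 9648 to 9767) was listed at 0 in all 5 Col-0 libraries and at 2.95, 7.03, 6.38, 1.26 and 1.33 in the triple mutant, and at means of 2.96 in gcn5-7 and 1.53 in nrp1-1 nrp2-2. On chromosome 3, 3 neighbouring called genes from 21084035 to 21094297 (BHLH038, EDA7 and AT3G57000) were higher, and the next 3, AT3G57010, AT3G57020 and AT3G57030, from 21095600 to 21103719, were lower. Neighbours were counted among tested genes, and AT3G56980, which was not tested, lies between BHLH038 and EDA7. No run of 4 or more called genes in the same direction was found.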
